A study of Homo sapiens with 6 samples.

Results

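The NRF2 pathway is the main transcriptional defence of a cell against oxidants and electrophiles. It is represented here by 10 genes: NFE2L2, KEAP1, NQO1, GCLC, GCLM, TXNRD1, SRXN1, HMOX1, OSGIN1 and MAFG. They were chosen by name, as all probe sets of an Affymetrix HG-U133 Plus 2 array whose platform annotation gives 1 of these symbols and no other. This gave 20 probe sets of 54613 that are not controls, for 10 of 19775 genes. One more probe set carries the symbols NFE2L2 and CSNK2A1 together and was kept apart.

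RNA came from Hep3B, an established human hepatocellular carcinoma line, in 6 samples with 1 array each. The 3 miR-17 TuD samples come from a stable line that carries a lentiviral decoy (TuD, tough decoy) against miR-17, and the 3 NC TuD samples from a line that carries a control decoy. Both lines were made with the same steps: infection at a multiplicity of 5 with polybrene at 10.0 μg/mL for 48 hours, puromycin at 1.0 μg/mL, and pooling of the resistant colonies after 2 weeks. Each decoy is thus represented by 1 pooled line, and the labels name no separate cultures, so the p-values rest on sample-to-sample spread that may be only technical. A second code in the sample descriptions reads 72HR on all arrays, with PLUSDOX for miR-17 TuD and NODOX for NC TuD. Its meaning is not stated in the labels, and it cannot be told apart from the decoy.

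NRF2, the product of NFE2L2, is a basic leucine zipper transcription factor. In unstressed cells KEAP1 holds it and presents it to the CUL3 ubiquitin ligase, which leads to its breakdown, so that its activity is set largely at the protein level. When oxidants or electrophiles modify KEAP1, NRF2 enters the nucleus, pairs with a small MAF protein such as MAFG and binds antioxidant response elements. Its targets include quinone reduction (NQO1), glutathione synthesis (GCLC and GCLM), the thioredoxin and sulfiredoxin systems (TXNRD1 and SRXN1) and heme breakdown (HMOX1). In liver, the pathway is known for the handling of drugs, bile acids and other reactive compounds.

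The decoy is directed at miR-17, whose family shares a seed, the stretch of bases 2 to 8 that pairs with target mRNAs. The mature sequences of the family members are shown because the compared lines were made to differ in the activity of miR-17. The sequences are RefSeq's, with GRCh38.p14 positions, written 5′ to 3′ with the seed in capitals.
hsa-miR-17-5p (chr13:91350618-91350640, plus strand): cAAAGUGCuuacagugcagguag
hsa-miR-20a-5p (chr13:91351072-91351094, plus strand): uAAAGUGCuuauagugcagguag
hsa-miR-20b-5p (chrX:134169850-134169872, minus strand): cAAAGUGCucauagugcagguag
hsa-miR-93-5p (chr7:100093815-100093837, minus strand): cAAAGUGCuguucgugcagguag
hsa-miR-106a-5p (chrX:134170244-134170266, minus strand): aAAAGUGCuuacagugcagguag
hsa-miR-106b-5p (chr7:100094043-100094063, minus strand): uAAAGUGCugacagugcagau
The seed of these 6 was identical. In RefSeq's list of mature human microRNAs it occurred in 8 names, the others being hsa-miR-519d-3p and hsa-miR-526b-3p. Which of them the decoy binds was not measured here, and no 3′ ends of the 10 mRNAs were searched for sites.

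NQO1 and SRXN1 were higher in the miR-17 TuD arrays, NQO1 by 1.37-fold to 1.40-fold on the probe sets past the threshold and SRXN1 by 1.23-fold. The remaining NQO1 probe set, short of the threshold, was 1.25-fold higher. The transcription factor gene NFE2L2, the partner gene MAFG and the low OSGIN1 did not pass the test. On the probe sets of highest mean, the subunits of glutamate-cysteine ligase stood 1.16-fold higher (GCLM) and 1.15-fold lower (GCLC), and neither passed. All values are log2 expression as deposited, and every difference is miR-17 TuD minus NC TuD. The groups were compared with limma across 32768 probe sets whose mean level was above the 40th percentile, with p-values adjusted after Benjamini and Hochberg, and 0.05 as the threshold. In RNA from a whole culture, fewer cells of a kind and less RNA per cell cannot be told apart.

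Of the 20 probe sets, 17 passed the filter on low values. Among these, 3 were past the threshold as higher, against 3.35% of all probe sets tested. None was past it as lower, against 2.48% of all tested. At an unadjusted p under 0.05 limma found 9 of the 17, 7 higher and 2 lower, against 22.1% of all tested in either direction. The 3 arrays of one group lay wholly above those of the other on 8 probe sets with miR-17 TuD higher, against 13.7% of all tested. The same held on 2 with miR-17 TuD lower, against 13.6%. The median difference of the 17 was 0.097, and that of all probe sets tested was 0. The members were chosen with earlier results of these data known, so these counts are a description.

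Of 8 hepatocyte markers all were well read, from 7.55 to 16.23, and 7 were lower in miR-17 TuD at the threshold. Their summed level on the linear scale was 130288 to 135334 in miR-17 TuD and 151461 to 156990 in NC TuD. That sum is weighted towards the most highly read, ALB and SERPINA1. On the log2 scale the 7 differences ranged from -0.21 (ALB) to -1.31 (APOA1), with AFP at -1.27 and FGB at -1.26. SERPINA1 stood at 0.13 without a call. Of 5 fibroblast markers, COL3A1 and DCN were at the lowest value and COL1A1, COL1A2 and LUM were read. The summed level of that list was 7674 to 10870 in miR-17 TuD and 7375 to 7572 in NC TuD, and no member passed the test. Endothelial markers were at or under 2.43 and blood cell markers at or under 3.88 on all arrays. The difference between 3′ and 5′ control probe sets was -0.26 to -0.24 in miR-17 TuD and -0.25 in NC TuD for GAPDH. For ACTB it was 0.68 in miR-17 TuD and 0.69 to 0.71 in NC TuD. The part of the marker and control differences in the results was not tested.

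**Figure D1:**
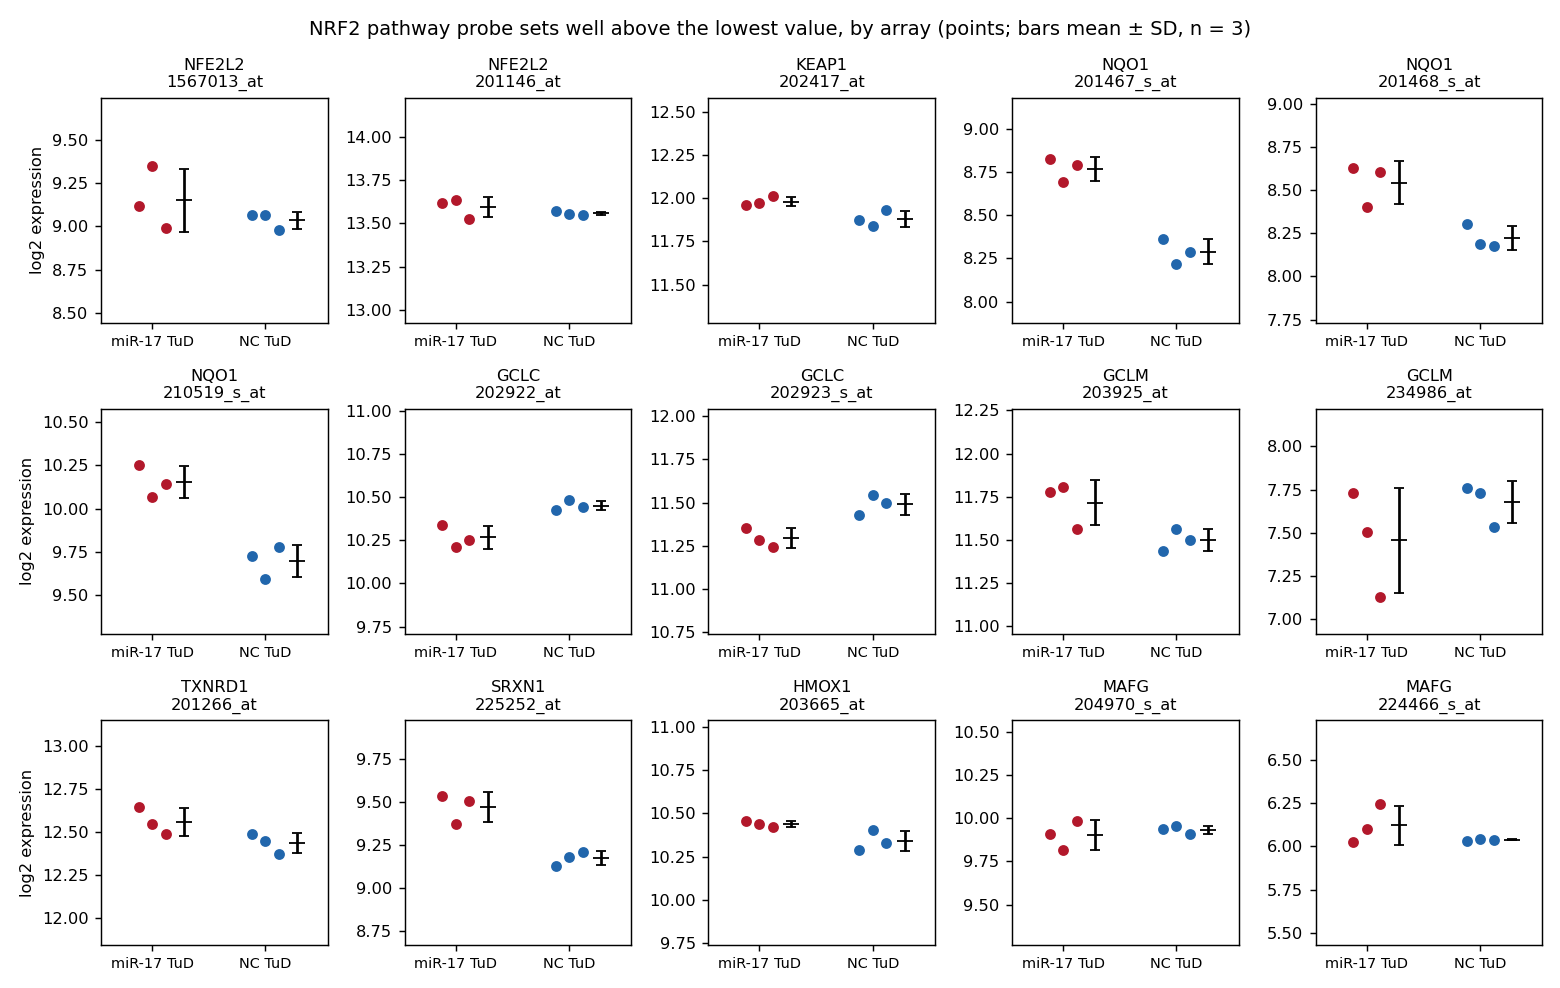
Log2 expression of the 15 tested probe sets that stand well above the lowest value, by array, with each panel spanning 1.3 log2 units. Points are arrays, and bars are the mean ± SD of 3 arrays. The miR-17 TuD points lie above all NC TuD points on all 3 NQO1 panels and on SRXN1, and below them on both GCLC panels.

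The gene of the factor itself was measured well by 2 of its 3 probe sets. On the probe set of highest mean, 201146_at, NFE2L2 stood at 13.62, 13.64 and 13.53 in the miR-17 TuD arrays, against 13.57, 13.56 and 13.55 in the NC TuD arrays. The difference was 0.035 (95% interval -0.051 to 0.12, adjusted p = 0.566 in limma). On 1567013_at the values were 9.12, 9.35 and 8.99 in miR-17 TuD, against 9.06, 9.06 and 8.98 in NC TuD. The groups overlapped on both probe sets, with a difference of 0.12 on the second (interval -0.15 to 0.38, adjusted p = 0.566). The third, 1567015_at, was at the lowest value of the scale, 2.12, on all 6 arrays and was not tested. In miR-17 TuD replicate 3 both measurable NFE2L2 probe sets were lowest of the group. Without it NFE2L2 came to a log2 difference of 0.069 with an adjusted p of 0.0467 in the fit over genes, a 1.05-fold change, and to an adjusted p of 0.0651 in the fit over probe sets. Without miR-17 TuD replicate 2, the highest of its group on both, the differences were 0.014 on 201146_at and 0.018 on 1567013_at. On 1567013_at it was 0.20 without replicate 3.
The probe set that NFE2L2 shares with CSNK2A1, the catalytic subunit gene of casein kinase II, had 10.49, 10.46 and 10.45 in miR-17 TuD and 10.52, 10.57 and 10.58 in NC TuD. The groups did not overlap (log2 difference -0.094, adjusted p = 0.0751 in limma), and which of the 2 genes it reports is not known.

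KEAP1, the adaptor that marks NRF2 for breakdown, had 11.96, 11.97 and 12.01 in the miR-17 TuD arrays and 11.87, 11.84 and 11.93 in the NC TuD arrays. The groups did not overlap, and the difference was 0.10 (interval 0.023 to 0.18, adjusted p = 0.139). MAFG, which encodes a small MAF partner of NRF2, gave differences of opposite sign on its 2 probe sets. On 204970_s_at it stood at 9.91, 9.81 and 9.99 in miR-17 TuD, against 9.93, 9.95 and 9.91 in NC TuD (difference -0.031, adjusted p = 0.739). On 224466_s_at it had 6.02, 6.10 and 6.24 in miR-17 TuD and 6.03, 6.04 and 6.04 in NC TuD (difference 0.084, adjusted p = 0.493). The groups overlapped on both, and on each the miR-17 TuD arrays were spread more widely than the NC TuD arrays (SD 0.087 against 0.023, and 0.11 against 0.0039).

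NQO1 encodes a quinone reductase and is among the most used readouts of NRF2 activity. All 3 of its probe sets were higher in miR-17 TuD with no overlap. All carry the suffix s_at, which marks possible binding to several transcripts. On 210519_s_at the values were 10.25, 10.07 and 10.14 in miR-17 TuD, against 9.72, 9.59 and 9.78 in NC TuD. The difference was 0.46 ± 0.071 (SE), 1.37-fold, with an adjusted p of 0.0403. On 201467_s_at the values were 8.83, 8.69 and 8.79 in miR-17 TuD, against 8.36, 8.21 and 8.29 in NC TuD. This difference was 0.48 ± 0.055 (SE), 1.40-fold, with an adjusted p of 0.0223. The third probe set, 201468_s_at, fell short of the threshold. It had 8.62, 8.40 and 8.60 in miR-17 TuD and 8.30, 8.19 and 8.18 in NC TuD, a difference of 0.32 ± 0.076 (SE), with an adjusted p of 0.0904. It passed with a stricter filter, at the 60th percentile (adjusted p = 0.0379 in limma), and with median centring (adjusted p = 0.0389). In miR-17 TuD, replicate 2 was lowest on all 3.

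SRXN1 encodes sulfiredoxin, which restores peroxiredoxins that peroxide has over-oxidised. Its 1 probe set had 9.53, 9.37 and 9.50 in the miR-17 TuD arrays, against 9.13, 9.18 and 9.21 in the NC TuD arrays. The groups did not overlap, and the difference was 0.30 ± 0.051 (SE), 1.23-fold, with an adjusted p of 0.0487. These calls lie close to the threshold and turn on single arrays. That on NQO1 210519_s_at ended whichever of the 6 arrays was dropped, with differences of 0.41 to 0.50. Those on NQO1 201467_s_at (0.44 to 0.52) and SRXN1 (0.26 to 0.35) ended in 5, all but the fit without miR-17 TuD replicate 2. With no filter on low values, all 3 calls ended (adjusted p = 0.0963, 0.0578 and 0.114 in limma). All 3 also ended with the replicate number as a block (adjusted p = 0.0705, 0.0541 and 0.129 in limma). With that block, no probe set of all tested was past the threshold. The call of SRXN1 also ended with trend and robust variance (adjusted p = 0.0556) and with array weights (adjusted p = 0.0545).

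TXNRD1 encodes the cytosolic thioredoxin reductase, a selenoprotein that keeps thioredoxin reduced. On 201266_at it had 12.65, 12.54 and 12.49 in miR-17 TuD, against 12.49, 12.45 and 12.37 in NC TuD. The lowest miR-17 TuD array and the highest NC TuD array were level to 2 decimals, and the difference of 0.12 did not pass (interval -0.016 to 0.26, adjusted p = 0.271). Its other probe set, 1561080_at, was at the lowest value on all 6 arrays. HMOX1, the inducible heme oxygenase, stood at 10.46, 10.44 and 10.42 in miR-17 TuD and at 10.29, 10.41 and 10.33 in NC TuD. The groups were apart by little, with a difference of 0.097 (interval 0.0086 to 0.19, adjusted p = 0.193). OSGIN1, an oxidative stress induced growth inhibitor, was near the lowest value, at 2.16 on each array, so a change in it was not measurable here.

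GCLC and GCLM encode the catalytic and modifier subunits of glutamate-cysteine ligase, the rate-limiting enzyme of glutathione synthesis. GCLC was lower in miR-17 TuD on both probe sets above the filter. On 202923_s_at it had 11.36, 11.29 and 11.24 in miR-17 TuD, against 11.43, 11.55 and 11.50 in NC TuD (difference -0.20, interval -0.31 to -0.078, adjusted p = 0.0842). On 202922_at it had 10.34, 10.21 and 10.25 in miR-17 TuD, against 10.43, 10.48 and 10.44 in NC TuD (difference -0.18, interval -0.29 to -0.081, adjusted p = 0.0724). Neither pair of groups overlapped. With a stricter filter, the 60th percentile, both passed (adjusted p = 0.0457 and 0.0423), and 202922_at also without miR-17 TuD replicate 1 (-0.22, adjusted p = 0.046). The third GCLC probe set, 1555330_at, was at 2.12 throughout and was not tested.

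GCLM gave opposite differences on its 2 probe sets of clear signal. On 203925_at, designed on a RefSeq mRNA, it had 11.78, 11.81 and 11.57 in miR-17 TuD and 11.44, 11.56 and 11.50 in NC TuD. The groups met without overlap, and the difference was 0.22 (interval 0.011 to 0.42, adjusted p = 0.208). On 234986_at, designed on an expressed sequence tag, it had 7.73, 7.51 and 7.13 in miR-17 TuD and 7.76, 7.73 and 7.54 in NC TuD. Here the groups overlapped, and the difference was -0.22 (interval -0.68 to 0.24, adjusted p = 0.541). The third, 236140_at, lay between 2.39 and 2.46 on all arrays. Without miR-17 TuD replicate 3, the lowest of its group on the first 2, the difference on 203925_at was 0.29, with an adjusted p of 0.0696 in the fit over probe sets and 0.0449 in that over genes. On 234986_at it was then -0.057, and without replicate 1 it was -0.36, neither past the threshold.

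A contrast of the subunits within each array was added after these values were seen. Different probe sets do not share a scale, so only its shift between groups is read. GCLM 203925_at minus GCLC 202923_s_at was 0.42, 0.52 and 0.33 in the miR-17 TuD arrays, against 0.0097, 0.018 and 0.0022 in the NC TuD arrays. The means were 0.42 ± 0.097 and 0.01 ± 0.0079 (SD, n = 3 each), a shift of 0.41 with p = 0.1 in a 2-sided exact permutation test, the smallest that 3 against 3 arrays allow. With GCLC 202922_at the shift was 0.40 (exact p = 0.1). With GCLM 234986_at in place of 203925_at it was -0.024 and -0.036 (exact p = 1 and 0.9), so the unequal change rests on the choice of the GCLM probe set. On 203925_at GCLM was wholly higher in miR-17 TuD, and both GCLC probe sets were wholly lower, so those contrasts had to separate the groups. The exact p of 0.1 was thus fixed by the values already given and adds no support to them.

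**Figure D2:**
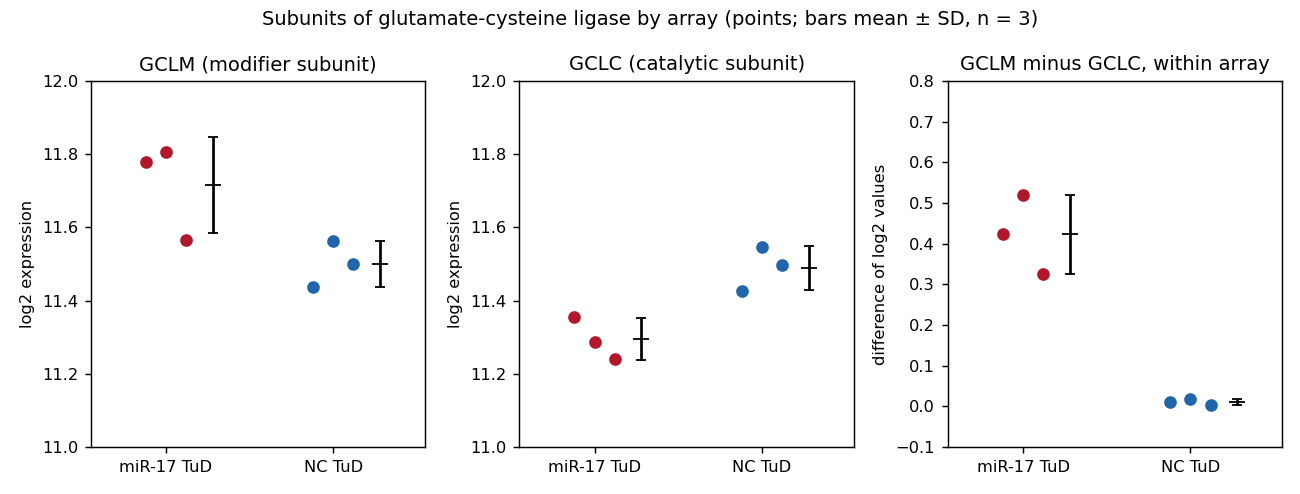
Log2 expression of GCLM (203925_at) and GCLC (202923_s_at) by array, and their difference within each array, in miR-17 TuD and NC TuD. Points are arrays, and bars are the mean ± SD of 3 arrays. The within-array difference is 0.33 to 0.52 in miR-17 TuD and near 0 in NC TuD.

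**Figure D3:**
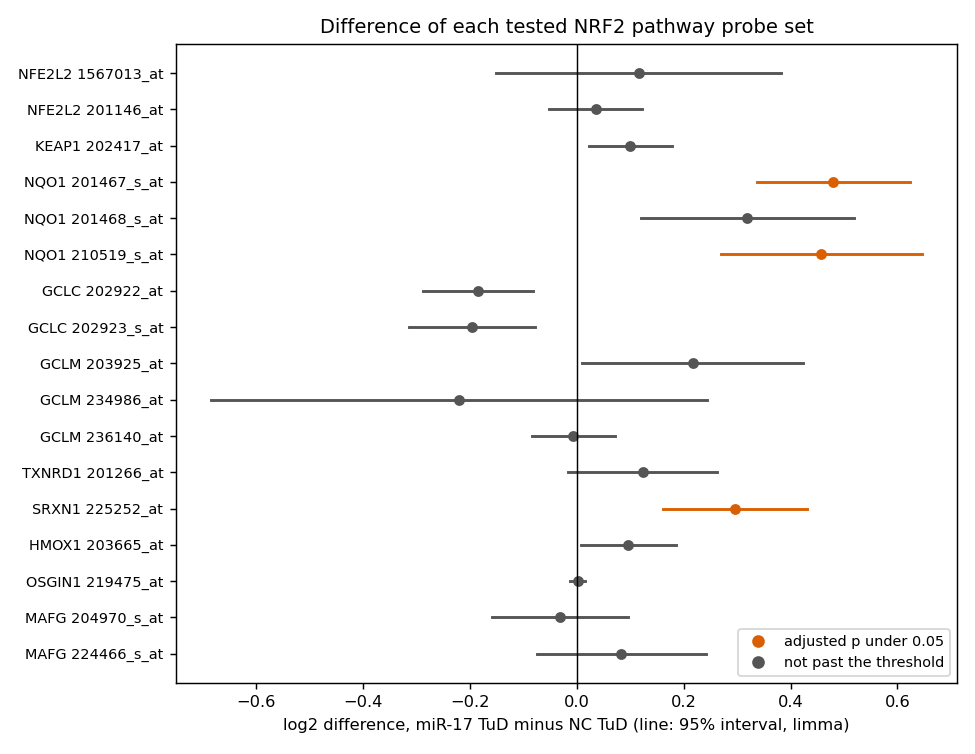
Log2 difference, miR-17 TuD minus NC TuD, of the 17 tested probe sets, with 95% intervals from limma. The 3 coloured points are past the threshold, 2 of NQO1 and 1 of SRXN1, and the interval of GCLM 234986_at, -0.68 to 0.24, is the widest.

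With 1 probe set a gene, the one of highest mean, the fit ran over 13949 genes. NQO1 (adjusted p = 0.0264 in limma) and SRXN1 (adjusted p = 0.033) were past the threshold as higher, 2 of the 10 genes, against 6.78% of all genes. No member was past it as lower, against 4.6% of all genes. At an unadjusted p under 0.05 limma found 6 of the 10, 5 higher and GCLC lower, against 27.8% of all genes in either direction. The median difference of the 10 genes was 0.099, and that of all genes was 0.00056. With the filter at the 60th percentile, 2 of 9 member genes were past the threshold as higher and 1 as lower, against 1178 and 926 of all 10773. The lower one was GCLC (adjusted p = 0.0357 in limma). GCLC also passed as lower with quantile normalization (adjusted p = 0.0428) and with averaged probe sets (adjusted p = 0.0496).

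The profile of NFE2L2 over the 6 arrays, standardised to mean 0 and SD 1, was nearest to those of TAF1A (Euclidean distance 0.274), INTS8 (0.323) and RAD18 (0.354) among 13236 genes, of which the median distance was 3.29. TAF1A encodes a subunit of the RNA polymerase I selectivity factor, INTS8 a subunit of the Integrator complex and RAD18 a ubiquitin ligase of DNA damage tolerance. Like NFE2L2, each was lowest of the miR-17 TuD arrays in replicate 3, and none of the 3 passed the test (differences 0.067, 0.078 and 0.043). These 3 were picked for their distance over the same 6 arrays, so the shared profile follows from the choice.

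Promoters are shown because the pathway is defined by a DNA element. RefSeq's promoter table (GRCh38.p14, from 250 bases before to 50 after a gene start) held 12 windows for 9 of the 10 genes; HMOX1 had none. The core of the antioxidant response element, TGACNNNGC, was searched on both strands. It was found in 4 of the 12 windows, for KEAP1, GCLM and TXNRD1, and in 13.3% of all 35116 windows. No match overlapped an AP-1 site (TGANTCA), which shares its first letters. The 250 bases before the start are given 5′ to 3′ along the gene for the 2 ligase subunits and for NQO1, with matches in capitals.
GCLM (chr1:93909431-93909680, minus strand): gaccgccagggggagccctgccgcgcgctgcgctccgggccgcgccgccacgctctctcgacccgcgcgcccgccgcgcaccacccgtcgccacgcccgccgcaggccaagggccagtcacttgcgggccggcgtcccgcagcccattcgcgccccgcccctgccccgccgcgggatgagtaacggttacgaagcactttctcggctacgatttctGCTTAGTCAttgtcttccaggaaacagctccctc
GCLC (chr6:53545102-53545351, minus strand): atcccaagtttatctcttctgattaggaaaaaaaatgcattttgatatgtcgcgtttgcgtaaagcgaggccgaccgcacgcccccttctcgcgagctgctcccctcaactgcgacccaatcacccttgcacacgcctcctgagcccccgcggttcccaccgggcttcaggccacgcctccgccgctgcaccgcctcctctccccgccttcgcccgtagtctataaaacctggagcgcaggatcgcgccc
NQO1 (chr16:69726561-69726810, minus strand): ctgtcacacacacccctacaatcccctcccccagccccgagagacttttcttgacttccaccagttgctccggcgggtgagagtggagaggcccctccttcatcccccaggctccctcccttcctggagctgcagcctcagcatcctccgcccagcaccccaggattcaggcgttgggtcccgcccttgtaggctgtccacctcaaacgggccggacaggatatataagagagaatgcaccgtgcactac
The capitals in GCLM read TGACTAAGC on the opposite strand. The windows of GCLC and NQO1 held no match, nor did those of SRXN1, NFE2L2, MAFG and OSGIN1. Several known elements, that of GCLC among them, lie further upstream than these windows reach, so this says only that the letters are not within them. Stretches of 41 bases around the matches in KEAP1 and in 2 windows of TXNRD1 follow in the same form.
KEAP1 (chr19:10502801-10502841, minus strand): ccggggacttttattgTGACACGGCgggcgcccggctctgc
KEAP1 (chr19:10502778-10502818, minus strand): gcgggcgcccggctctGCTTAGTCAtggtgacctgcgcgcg
TXNRD1 (chr12:104215664-104215704, plus strand): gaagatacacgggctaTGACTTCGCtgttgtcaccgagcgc
TXNRD1 (chr12:104286914-104286954, plus strand): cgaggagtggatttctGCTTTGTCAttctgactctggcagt
In KEAP1 the matches read TGACACGGC on the gene's strand and TGACTAAGC on the other, the same 9 letters as in GCLM. In TXNRD1 they read TGACTTCGC on the gene's strand and TGACAAAGC on the other, and a further match that reaches past the gene start is not shown. KEAP1, GCLM and TXNRD1, which had a match, were all short of the expression threshold, and NQO1 and SRXN1, past it, had none in their windows. A relation between matches and expression was not tested.

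Around these 10 genes, 86 other genes of the pathway were listed by role, of which 77 were measured. In the gene fit 9 were past the threshold as higher, against 6.78% of all genes, and 4 as lower, against 4.6%. The median difference was 0.039, against 0.00056 over all genes. The counts by role below, each from a list of at most 21 measured genes, are read against the same shares. Among the regulators, 1 of 13 was higher and 2 were lower. SQSTM1, the autophagy receptor p62 that sequesters KEAP1, stood at 13.75, 13.68 and 13.79 in miR-17 TuD and 13.43, 13.26 and 13.40 in NC TuD (0.38, adjusted p = 0.0246 in limma). BACH1, a repressor that competes with NRF2 for its elements, had 10.60, 10.58 and 10.51 in miR-17 TuD and 10.88, 11.00 and 10.80 in NC TuD (-0.33, adjusted p = 0.0362). GSK3B, a kinase that marks NRF2 for another ubiquitin ligase, had 10.89, 10.93 and 10.91 in miR-17 TuD and 11.23, 11.27 and 11.10 in NC TuD (-0.29, adjusted p = 0.0325). The groups were apart for all 3. With 1 array left out, the calls of SQSTM1 and BACH1 ended in all 6 fits, and that of GSK3B ended in 5. The SQSTM1 value came to 0.11 (adjusted p = 0.382) when probe sets with the suffix s_at, which marks possible binding to several transcripts, were left out, and that of GSK3B was -0.084 (adjusted p = 0.0813) with its probe sets averaged. The most highly read regulators, RBX1 (0.034) and DPP3 (0.13), did not pass.

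Genes of NADPH supply, which feeds both NQO1 and the glutathione and thioredoxin reductases, were higher in 2 and lower in 1 of 8, against 6.78% and 4.6% of all genes. TKT, transketolase of the pentose phosphate pathway, had 12.74, 12.70 and 12.73 in miR-17 TuD, against 12.33, 12.27 and 12.37 in NC TuD (0.40, adjusted p = 0.00787). TALDO1, transaldolase of the same pathway, was 0.18 higher (adjusted p = 0.0417). IDH1, the cytosolic isocitrate dehydrogenase, had 13.64, 13.61 and 13.59 in miR-17 TuD, against 13.92, 13.89 and 13.87 in NC TuD (-0.28, adjusted p = 0.00621). The 3 differences each exceeded the spread of the arrays, and MTHFD2, highly read, stood at 0.029. When s_at probe sets were left out, TKT was read by a probe set of low signal with the same value on all 6 arrays, a difference of 0.

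Conjugation, reduction and export genes were higher in 2 and lower in 1 of 21, near the shares of 6.78% and 4.6% over all genes. AKR1B10, an aldo-keto reductase raised in many liver cancers, had the largest difference of the 77 genes. It stood at 10.26, 10.17 and 10.08 in miR-17 TuD, against 9.49, 9.43 and 9.45 in NC TuD, 1.64-fold higher (0.71, adjusted p = 0.00679). CBR1, a carbonyl reductase, was 0.36 higher (adjusted p = 0.0122), and GSTA4, a glutathione transferase for lipid aldehydes, was lower (-0.16, adjusted p = 0.0356). The transferases MGST1 (0.076) and GSTM3 (-0.01), highly read, did not pass.

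Each of the other roles had 1 gene higher, against 6.78% of all genes, and none lower. In the glutathione list, 1 of 12, it was GLRX2, a mitochondrial glutaredoxin (0.30, adjusted p = 0.0131), while GPX4 (0.058) and GPX1 (0.051) did not pass. In the thioredoxin and peroxiredoxin list, 1 of 12, it was TXN, thioredoxin itself (0.19, adjusted p = 0.0231), with PRDX2 at 0.062. Among heme and iron genes, 1 of 7, it was HMOX2, the constitutive heme oxygenase (0.41, adjusted p = 0.0345), with BLVRA at 0.064 and FTL at 0.034. Among superoxide and peroxide genes, 1 of 4, it was SOD1, the cytosolic superoxide dismutase (0.082, adjusted p = 0.0427), with CAT at -0.10. Of the 13 calls, those of AKR1B10 and IDH1 held under each alternative that measured them. AKR1B10, read by an s_at probe set, was not measured when those were left out. The others each ended under at least 1 alternative, from 1 for TKT to 11 of 15 for SOD1. Without s_at probe sets, HMOX2 (0.29, adjusted p = 0.0791 in limma) and TXN (0.18, adjusted p = 0.0504) also lost their calls. Of these 13, 5 kept their call without miR-17 TuD replicate 2, and 6 without either of the other miR-17 TuD arrays. Without NC TuD replicate 1 it was 3, and without either of the other NC TuD arrays 5. AKR1B10, IDH1 and TKT were among those kept in all 6 fits.

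**Figure D4:**
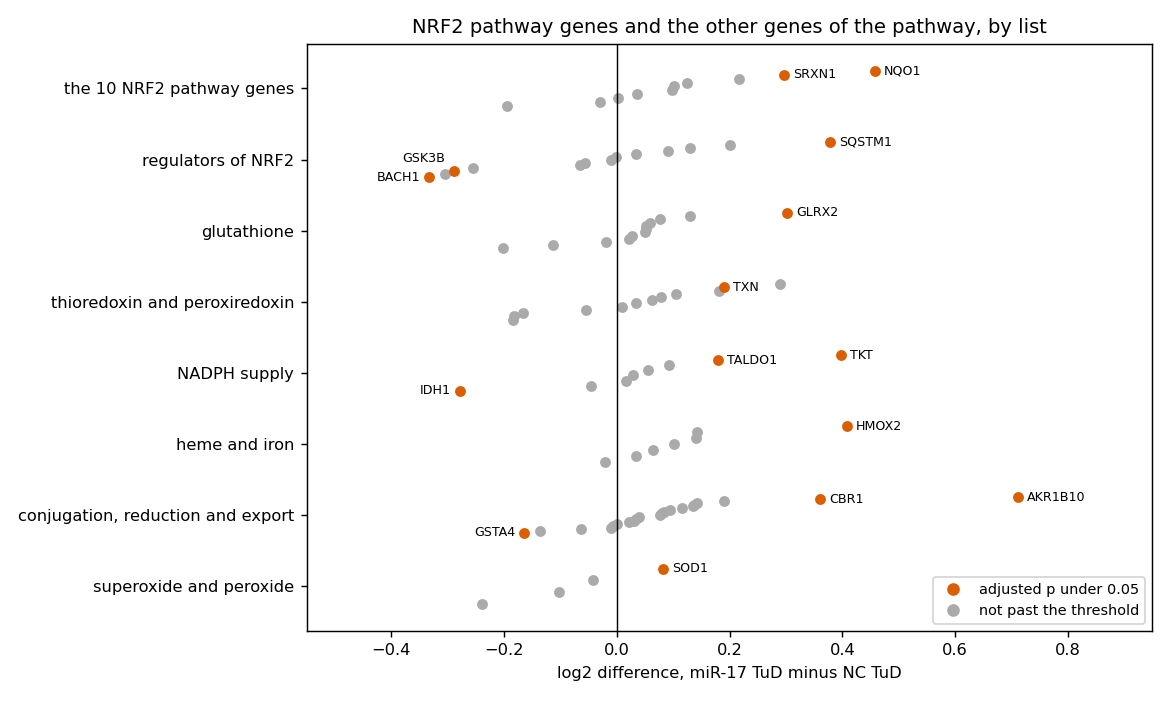
Log2 difference, miR-17 TuD minus NC TuD, of the 10 NRF2 pathway genes and of the 77 other measured genes of the pathway, by role, with 1 point a gene. Coloured and named points are past the threshold. AKR1B10 lies furthest right at 0.71 and BACH1 furthest left at -0.33.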

How the data were processed

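Expression was measured on 6 arrays, 3 miR-17 TuD and 3 NC TuD. The deposited log2 values were used as given; per the submitters' processing notes the authors used RMA and GCRMA, with no version, role or order, and neither the array software nor a build is stated in the labels. The lowest value, 2.12, was shared by 34.9% to 35.4% of probe sets on each array, so changes of weakly read genes are hidden. Precision is limited by how many arrays there are. Of 54675 probe sets, 62 controls were left out, and the platform annotation gives 41091 of the others 1 symbol, 1801 several and 11721 none; 41037 probe sets matched RefSeq GRCh38.p14 by Entrez identifier, which gave their current symbols. Probe sets with a mean at or under the 40th percentile (2.14) were not tested. Groups were compared over all probe sets, and over genes, with limma 3.58.1 in R 4.3.3 (lmFit, eBayes without trend, 2-sided, Benjamini-Hochberg). The steps were tested on simulated data. Alternatives were no filter, a 60th percentile filter, quantile normalization, median centring, trend and robust variance, array weights, a replicate block, leaving out each array, averaged probe sets, and no s_at or x_at probe sets. Named genes were the 10 members with all their probe sets, up to 4 past the threshold and the 2 of highest mean in each list, and the 3 genes nearest to NFE2L2. Members and lists were chosen with earlier results of these data known.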

Additional observations from a re-analysis of the deposited data

How the results depend on the processing

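The 3 member probe sets past the threshold became 0 with no filter on low values and 0 to 2 when 1 array was left out. With no filter, 8 of 20 had an unadjusted p under 0.05 in limma, against 12.3% of all probe sets. With the 60th percentile filter, 6 of 15 were past the threshold. Of these, 4 were higher and 2 lower, against 1705 and 1566 of all 21845. The 2 member genes became 0 with no filter. With no filter, 6 of 10 had an unadjusted p under 0.05 in limma, against 18.3% of all genes. Without s_at and x_at probe sets, which leaves NQO1 unmeasured, 1 of 8 tested was past the threshold. When 1 array was left out it was 0 to 2. The 2 there, without miR-17 TuD replicate 3, were NFE2L2 and GCLM; NQO1 ended in each such fit, and SRXN1 in all but that without miR-17 TuD replicate 2. The 13 other pathway genes became 6 with no filter, 7 without s_at and x_at probe sets and 3 to 8 when 1 array was left out, of which 3 to 6 were among the 13. The other scalings, variance models and averaged probe sets moved no count by more than 2. GCLC joined the member genes past the threshold, as lower, with quantile normalization and with averaged probe sets. With the replicate block the counts were 0 probe sets, 1 gene and 6 other genes. With that block, 8 of the 17 probe sets had an unadjusted p under 0.05 in limma, against 22.9% of all tested. Deviations of same-numbered arrays correlated at 0.032, 0.13 and 0.10 over genes, against -0.10 to 0.001 for arrays of unlike number. Each array thus correlated best with its own number. Whether equal numbers mark pairs is not stated in the labels, and the main fit did not take them as pairs. Over all features the 1910 called of 32768 probe sets became 554 of 54613 with no filter and 3271 of 21845 with the stricter filter. Of the same 32768 it was 145 to 1155 when 1 array was left out. With the block it was 0 (7488 at an unadjusted p under 0.05 in limma). The 1588 called genes became 789 with no filter, 927 without s_at and x_at probe sets, 374 to 1243 when 1 array was left out and 822 with the block.

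Signs turned only for values without a call. MAFG 204970_s_at ranged from -0.073 to 0.013 with 1 array left out, and the gene was 0.027 with averaged probe sets. GCLM 236140_at was 0.016 with median centring and -0.025 to 0.019 with 1 array left out, and GCLM averaged over probe sets was -0.0029. GSTM3 was 0.012 with median centring and -0.040 to 0.021 with 1 array left out, and MGST1 was -0.20 on a probe set without the suffix. The causes were not tested.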
